A study of Homo sapiens with 9 samples.

Results

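The matrix metalloproteinases are zinc proteases that cleave the proteins of the extracellular matrix. Followed here are 10 of their genes among the 58219 gene identifiers of the count files, chosen by gene symbol: 7 for secreted enzymes (MMP1, MMP2, MMP3, MMP7, MMP9, MMP10 and MMP13) and 3 for enzymes held at the cell membrane (MMP14, MMP15 and MMP24). The 9 polyA RNA sequencing samples came from the human hepatoma line PLC/PRF/5, with stable expression of YES, a kinase of the Src family. In 5 samples YES had the T348I mutation, which replaces the gatekeeper residue of the drug pocket, and in 4 samples (WT) it was wild type. Every sample had received 100 nM of dasatinib, which blocks Src family kinases and ABL. Untreated cells were not analysed here, and each comparison sets T348I against WT under the drug. Whether each group is 1 clone or a pool of cells was not given in the sources used here, and a difference between the 2 lines cannot be told apart from a difference between the 2 forms of YES. The titles spell the drug as dasatinib (3 T348I and 3 WT samples) or as Dasa (2 T348I samples and 1 WT sample), and the samples are named by set (dasatinib or Dasa).

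Most metalloproteinases are made as inactive proenzymes, in which a cysteine of the propeptide blocks the catalytic zinc, and become active when the propeptide is cut, often by plasmin, by furin or by another member of the family. Tissue inhibitors of metalloproteinases (TIMPs) bind the active enzymes. Transcription of several secreted members, MMP1 and MMP3 among them, is known to be low in resting tissue and to respond to growth factor signals through AP-1 and ETS sites near the start of the gene. MMP2 is known to be expressed more constantly and to lack such an AP-1 site, and the membrane-type genes mostly lack a TATA box and such an AP-1 site. In liver these enzymes take part in the turnover of scar collagen and in invasion by tumour cells.

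Promoters of 5 of the 10 members were held in the RefSeq table used (MMP7, MMP10, MMP14, MMP15 and MMP24, build GRCh38.p14). The 120 bases before the start of MMP10 (chr11:102780629-102780748, minus strand) and of MMP7 (chr11:102530748-102530867, minus strand) are printed because these genes of 1 cluster on chromosome 11 hold the same pair of motifs and, as given later, had different ratios of reads between the groups. Capitals mark the AP-1 motif TGANTCA, searched on both strands, and the TATA motif TATAAA, searched on the strand of the gene.
MMP10: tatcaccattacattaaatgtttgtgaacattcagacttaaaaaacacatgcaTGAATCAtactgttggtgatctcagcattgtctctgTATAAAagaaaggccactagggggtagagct
MMP7: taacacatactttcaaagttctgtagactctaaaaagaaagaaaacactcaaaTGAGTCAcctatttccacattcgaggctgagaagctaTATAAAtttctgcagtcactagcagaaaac
Counted from the start of the gene, with -1 as the base before it, the AP-1 letters lie at -67 to -61 in both genes. The TATA letters lie at -31 to -26 in MMP10 and at -30 to -25 in MMP7. Over the 250 bases before the start, MMP7 also held the ETS motif AGGAAG on the opposite strand at -169 to -164 and at -145 to -140 (both strands searched), and MMP10 held none. None of the 3 motifs was found in the same window of MMP14, MMP15 or MMP24. Only the exact letters were searched, so variants of these sites may lie in any of the windows, that of MMP10 included. Of 35116 promoters of this length, 6.573% held TGANTCA, 6.803% held TATAAA and 28.71% held AGGAAG. These are matches of letters only, and the windows of MMP1, MMP2, MMP3, MMP9 and MMP13 were not analysed here.

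Sequencing depth was 10381142 to 15799059 gene reads in T348I samples and 10464731 to 14118614 in WT samples. YES1, the introduced gene, stood at 749 ± 233 CPM (SD, n = 5; CPM are the reads of a gene scaled to a common depth) in T348I samples and 354 ± 13.2 CPM (SD, n = 4) in WT samples, and the count cannot tell introduced from endogenous or mutant from wild-type transcript. The sets stood apart, with mitochondrial genes taking 15.2% to 17% of gene reads in the Dasa set and 7.38% to 9.44% in the dasatinib set, so set was a term of the model. Of 10 hepatocyte markers 5 exceeded 100 CPM in every sample, with TTR under 1 CPM and ALB, the albumin gene, at a mean of 2.49 CPM in T348I samples and 3.95 CPM in WT samples. Of the 9 tested hepatocyte markers edgeR called 6 lower and 0 higher (0 higher at an unadjusted p under 0.05 too). The 10 markers summed to 5829 to 7580 CPM in T348I samples and 6531 to 9637 CPM in WT samples. Of 10 stromal markers 7 were under 1 CPM in every sample and ACTA2 was at 0, with sums of 6.72 to 11.2 CPM in T348I samples and 4.48 to 9.25 CPM in WT samples. The 2 tested, COL1A1 and THY1, were called higher, THY1 having passed the filter only through its T348I reads. Of 10 leukocyte markers 8 were under 1 CPM in every sample and MS4A1 was at 0, with sums of 804 to 1406 CPM in T348I samples and 961 to 1258 CPM in WT samples, nearly all of it LYZ. Of the 2 tested, edgeR called 0, and 0 had an unadjusted p under 0.05. The part of these marker changes in the differences of the MMP genes was not tested.

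Of the 10 members, 4 held enough reads for the edgeR quasi-likelihood test (MMP1, MMP14, MMP15 and MMP24), and MMP1 did so only through its reads in T348I samples. The test called 3 of the 4 higher in T348I samples (MMP1, MMP14 and MMP15) and 1 lower (MMP24), at an adjusted p under 0.05. The background is high: of 14617 genes tested, 42.5% were called, 20.7% higher and 21.8% lower in T348I samples, so the number of calls is no result about the family. Sizes differed far more than calls, with MMP1 changed 681-fold and MMP14 and MMP15 by about 1.2-fold. The other 6 members had 1 to 49 reads per group and are described by their reads.

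MMP1 encodes interstitial collagenase, which makes the first cut in fibrillar collagen. It lies on the minus strand of chromosome 11 (chr11:102789920-102798160, GRCh38, ENSG00000196611.4). T348I samples of the dasatinib set held 2679, 3869 and 2789 MMP1 reads and those of the Dasa set 2849 and 2603 reads. The WT samples held 6, 3 and 4 MMP1 reads in the dasatinib set and 5 in the Dasa set. The lowest T348I sample thus held 2603 reads and the highest WT sample 6.

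Scaled for depth, MMP1 stood at 258, 249, 240, 194 and 197 CPM in T348I samples and at 0.411, 0.274, 0.271 and 0.379 CPM in WT samples. The means were 228 ± 29.8 CPM (SD, n = 5) in T348I samples and 0.334 ± 0.0718 CPM (SD, n = 4) in WT samples. MMP1 had a log2 fold change of 9.41 (SE 0.089, edgeR adjusted p = 1.15e-23), or 681-fold. WT levels were close to the 0.2 to 0.3 CPM that 3 reads amount to, and the fold rests on 18 WT reads in all. From the pooled reads alone, the ratio was 672 with an exact 95% counting interval of 425 to 1134, which is wider than the standard error of the fit implies. Because these are bulk samples, more cells with MMP1 transcript and more transcript per cell cannot be told apart.

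The MMP1 log2 fold was 9.55 in the dasatinib set and 8.98 in the Dasa set. The difference between the sets, -0.57, did not pass the edgeR interaction test (adjusted p = 0.740). Within T348I samples, MMP1 was lower in the Dasa set (194 and 197 CPM) than in the dasatinib set (240 to 258 CPM). YES1 had the other order, at 974 and 1032 CPM in T348I samples of the Dasa set and 553 to 605 CPM in those of the dasatinib set. The sample that held most YES1 was not the one that held most MMP1. Level of YES1 and set cannot be told apart in this comparison, and a link with MMP1 was not tested.

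MMP1 reads came from the strand of the gene. The opposite strand held 3 to 15 reads in T348I samples and 0 in each WT sample. WTAPP1, a transcribed pseudogene, lies on that opposite strand across MMP1, MMP3 and MMP10. A count without regard to strand leaves out reads that fall in both genes, and in it MMP1 kept 73.8% to 77.5% of its sense count in T348I samples. Of 1940 31-base words in the MMP1 transcript, 0 also occur in MMP3, MMP8, MMP10, MMP12 or MMP13.

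**Figure D1:**
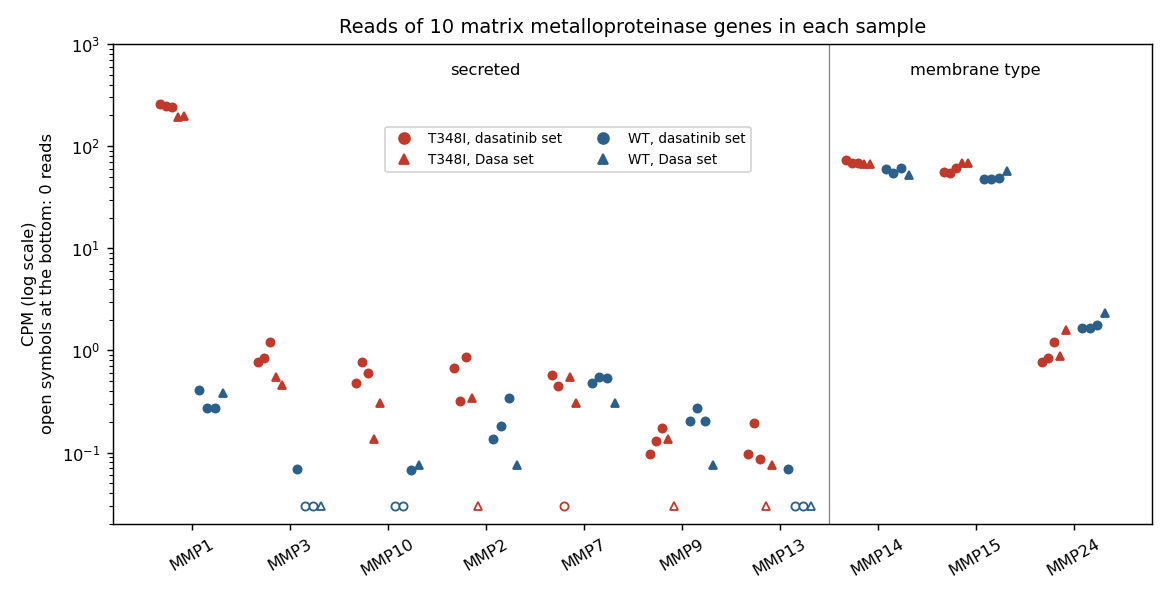
CPM of each of the 10 members in every sample on a log axis, 1 symbol per sample (circles for the dasatinib set, triangles for the Dasa set), with T348I in red left of WT in blue. Open symbols at the foot are samples with 0 reads. MMP1 stands at 194 to 258 CPM in T348I samples and 0.271 to 0.411 CPM in WT samples, while MMP14 and MMP15 lie between 47.1 and 73.6 CPM in every sample.

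The stromelysins MMP3 and MMP10 cleave proteoglycans, laminin and fibronectin and can activate other proenzymes, the MMP1 product among them. MMP3 (chr11:102835801-102843803) had 8, 13, 14, 8 and 6 reads in T348I samples and 1, 0, 0 and 0 reads in WT samples. Every T348I sample held more MMP3 than any WT sample. The pooled totals were 49 reads in T348I samples and 1 read in WT samples, a ratio of pooled CPM of 40.1 with an exact 95% counting interval of 6.86 to 1614. Without WT dasatinib replicate 1, which held the 1 read, the ratio becomes a lower bound of at least 9.71-fold, with 3 reads over the WT group as the floor. In the dasatinib set MMP3 had 35 reads in T348I samples and 1 in WT samples, and in the Dasa set 14 reads in T348I samples and 0 in the WT sample, where it was at least 2.21-fold higher.

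MMP10 (chr11:102770503-102780628) had 5, 12, 7, 2 and 4 reads in T348I samples and 0, 0, 1 and 1 reads in WT samples. Again the groups did not overlap, although the lowest T348I sample had 2 reads and the highest WT samples 1. Pooled, 30 reads in T348I samples and 2 in WT samples gave a ratio of 12.3 (3.11 to 106). The ratio was 25.8 (4.20 to 1059) in the dasatinib set and 2.84 (0.344 to 131) in the Dasa set, an interval that includes no difference. Without WT Dasa replicate 1 the pooled ratio of MMP10 was 18.5.

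With every gene kept in the test whatever its reads, edgeR called MMP3 higher, at a log2 fold change of 4.89 (adjusted p = 2.17e-10). It also called MMP10 higher, at 3.49 (adjusted p = 3.78e-05). These folds depend on the prior count edgeR adds, and the pooled ratios are the plainer measure. This fit also gives some genes far smaller p-values than the filtered fit. TIMP1, for example, had an edgeR adjusted p of 3.59e-213 without the filter and 5.32e-11 with it. Its p-values are therefore no guide to the strength of the MMP3 and MMP10 differences. MMP3 and MMP10 share 125 of their 31-base words, 6.11% of those of MMP3 and 7.12% of those of MMP10, and reads that matched both would have been left out by the counting.

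MMP1, MMP3 and MMP10 are neighbours. They belong to a cluster of 9 MMP genes on the minus strand of chromosome 11 that spans 435.2 kb and holds no other protein-coding gene in GENCODE release 29. The start of MMP10 lies at -17.53 kb from that of MMP1, and the start of MMP3 at 45.64 kb. Beyond MMP3, MMP12 at 76.87 kb had 3 reads in T348I samples and 1 in WT samples, and MMP13 at 157.6 kb had 6 in T348I samples and 1 in WT samples. Beyond MMP10, MMP8 and MMP27 had 0 reads in all 9 samples, which allows up to 0.0458 CPM in T348I samples and 0.0561 CPM in WT samples (3 reads over the group), MMP20 had 2 reads in T348I samples and 0 in WT samples, and MMP7, at -267.4 kb, had 25 in each group. In the cluster, the groups did not overlap for MMP10, MMP1 and MMP3, which lie side by side, and overlapped for MMP7 and MMP13.

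MMP13, a collagenase best known from cartilage and bone, had 1, 3, 1, 0 and 1 reads in T348I samples and 1, 0, 0 and 0 in WT samples. The ratio was 4.91, with an interval of 0.595 to 226 that includes no difference. It was 3.22 without T348I dasatinib replicate 2, and 1.19 against the floor of 3 reads without WT dasatinib replicate 1, which held the 1 WT read. MMP7, or matrilysin, an epithelial protease of small size, had 6, 7, 0, 8 and 4 reads in T348I samples and 7, 6, 8 and 4 in WT samples. Its groups overlapped throughout, and the ratio of 0.818 had an interval of 0.451 to 1.48. MMP10 and MMP7, whose promoters carry the AP-1 and TATA letters printed above, thus had pooled ratios whose counting intervals do not overlap. The pair was picked with these ratios known, and the intervals leave out the spread between samples, so this is no test of the motifs. In the Dasa set alone the intervals overlap, at 0.344 to 131 for MMP10 and 0.430 to 6.04 for MMP7. Neither gene reached 1 CPM in any sample.

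The gelatinases MMP2 and MMP9 cut denatured collagen and the collagen of basement membranes. MMP2 (chr16:55389700-55506691) had 7, 5, 10, 5 and 0 reads in T348I samples and 2, 2, 5 and 1 in WT samples. Its pooled ratio was 2.21, and the counting interval of 1.04 to 5.11 lies just above 1. The MMP2 groups overlapped, T348I Dasa replicate 2 had no read, and edgeR without the filter did not call MMP2 (adjusted p = 0.0695). MMP9 (chr20:46008908-46016561) had 1, 2, 2, 2 and 0 reads in T348I samples and 3, 3, 3 and 1 in WT samples, a ratio of 0.572 (0.185 to 1.67). The opposite strand, on which SLC12A5-AS1 overlaps MMP9, held 2 to 4 reads in T348I samples and 2 to 5 in WT samples, and the ratio was 0.35 with counts taken without regard to strand. A difference in MMP9 was not detectable at this depth.

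The membrane-type enzymes carried most of the family's transcript in WT samples. MMP14 activates the MMP2 proenzyme at the cell surface, with TIMP2 as a bridge, and itself cuts collagen. MMP14 (chr14:22836557-22849027) stood at 73.6, 68.5, 68.4, 66.3 and 66.4 CPM in T348I samples and 60.3, 55.0, 60.9 and 52.7 CPM in WT samples. All T348I samples lay above all WT samples. The means were 68.6 ± 2.97 CPM (SD, n = 5) in T348I samples and 57.2 ± 4.03 CPM (SD, n = 4) in WT samples, with a log2 fold change of 0.27 (SE 0.045, edgeR adjusted p = 6.15e-05). It was 0.25 in the dasatinib set and 0.33 in the Dasa set.

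MMP15 is a close relative of MMP14 with the same type of membrane anchor. MMP15 (chr16:58025566-58046901) stood at 56.4, 54.9, 61.2, 68.5 and 68.9 CPM in T348I samples and 47.9, 47.1, 48.9 and 57.1 CPM in WT samples. The groups overlapped, since WT Dasa replicate 1 exceeded T348I dasatinib replicates 1 and 2, but within each set every T348I sample was above every WT sample. The means were 62 ± 6.55 CPM (SD, n = 5) in T348I samples and 50.3 ± 4.63 CPM (SD, n = 4) in WT samples. MMP15 had a log2 fold change of 0.26 (SE 0.044, edgeR adjusted p = 8.80e-05), with 0.26 in the dasatinib set and 0.27 in the Dasa set.

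MMP24, an enzyme known mainly from the nervous system, was the 1 member called lower. MMP24 (chr20:35226654-35277000) had 8, 13, 14, 13 and 21 reads in T348I samples and 24, 18, 26 and 31 in WT samples. That came to 0.770 to 1.59 CPM in T348I samples and 1.64 to 2.35 CPM in WT samples, without overlap. MMP24 fell by 0.88 on the log2 scale (SE 0.228, edgeR adjusted p = 0.00390). The call was lost without the set term (-0.80, adjusted p = 0.0583) and with counts taken without regard to strand (-0.64, adjusted p = 0.0566).

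MMP24 lies inside MMP24OS, a gene read from the opposite strand, and that strand held more reads over MMP24 than its own did. They numbered 68 to 132 in T348I samples and 98 to 141 in WT samples. MMP24OS was lower as well, at 27.8 ± 1.65 CPM (SD, n = 5) in T348I samples and 33.2 ± 1.86 CPM (SD, n = 4) in WT samples, a log2 fold change of -0.25 (edgeR adjusted p = 0.00198). MMP24 reads amounted to 2.97% to 5.40% of MMP24OS reads in T348I samples and 4.77% to 7.64% in WT samples. Over all genes, reads on the opposite strand were 5.48% to 5.91% of those on the sense strand. That share includes reads of genes that lie on the opposite strand, so it is no rate of misassigned strand. The part of MMP24OS reads in the MMP24 counts was not tested, so the MMP24 value is uncertain.

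Across all 10 members, 4 (MMP1, MMP3, MMP10 and MMP14) had every T348I sample above every WT sample, and 1 (MMP24) had every T348I sample below. Among the 31304 genes with at least 1 read, 5.54% had every T348I sample above every WT sample and 4.76% had every T348I sample below. Only 14617 genes held enough reads to be tested, so these shares are no close match for the members with more reads. The members were also chosen with earlier results known, so their number is no result about the family. The fold of none of the 4 tested members differed between the sets by the edgeR interaction test: 0 were called and 0 had an unadjusted p under 0.05, while 7.33% of all genes were called. The Dasa set has 1 WT sample, which that test takes to vary like the other samples.

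Levels of different genes were compared as CPM per kb of exon, with all annotated exons of a gene counted in its length. Such ratios between genes would change if the cells make a shorter transcript. In T348I samples MMP1 came first, at 116 ± 15.1 CPM per kb (SD, n = 5). MMP14 at 15.4 ± 0.665 and MMP15 at 14.0 ± 1.48 CPM per kb followed, with ranges that overlapped. Every other member was under 0.6 CPM per kb in each T348I sample, in the order MMP3, MMP10, MMP24, MMP7, MMP2, MMP9 and MMP13 by mean. These 7 means ran from 0.372 for MMP3 to 0.0318 for MMP13, and neighbours in this order overlapped between samples.

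In WT samples MMP14 at 12.8 ± 0.903 CPM per kb and MMP15 at 11.4 ± 1.05 CPM per kb (SD, n = 4) came first, again with overlapping ranges. MMP24 followed at 0.419 ± 0.0766 CPM per kb, above MMP7 at 0.201 and MMP1 at 0.169, and all samples of MMP24 lay above all samples of those genes. MMP9, MMP2, MMP10, MMP3 and MMP13 were lower still, between 0.0812 and 0.00604 CPM per kb on average. MMP1 thus stood above every other member in T348I samples and below MMP14, MMP15, MMP24 and MMP7 by mean in WT samples, where its range overlapped that of MMP7. Per kb, MMP1 stood at 6.63 to 8.22 times MMP14 in T348I samples and 0.0101 to 0.0163 times MMP14 in WT samples.

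The ratio of MMP14 to MMP15 per kb followed the set. It was 1.29, 1.23 and 1.11 in T348I samples and 1.25, 1.15 and 1.23 in WT samples of the dasatinib set. In the Dasa set it was 0.959 and 0.954 in the T348I samples and 0.912 in the WT sample. The groups overlapped within the dasatinib set, and every Dasa ratio lay below every dasatinib ratio.

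**Figure D2:**
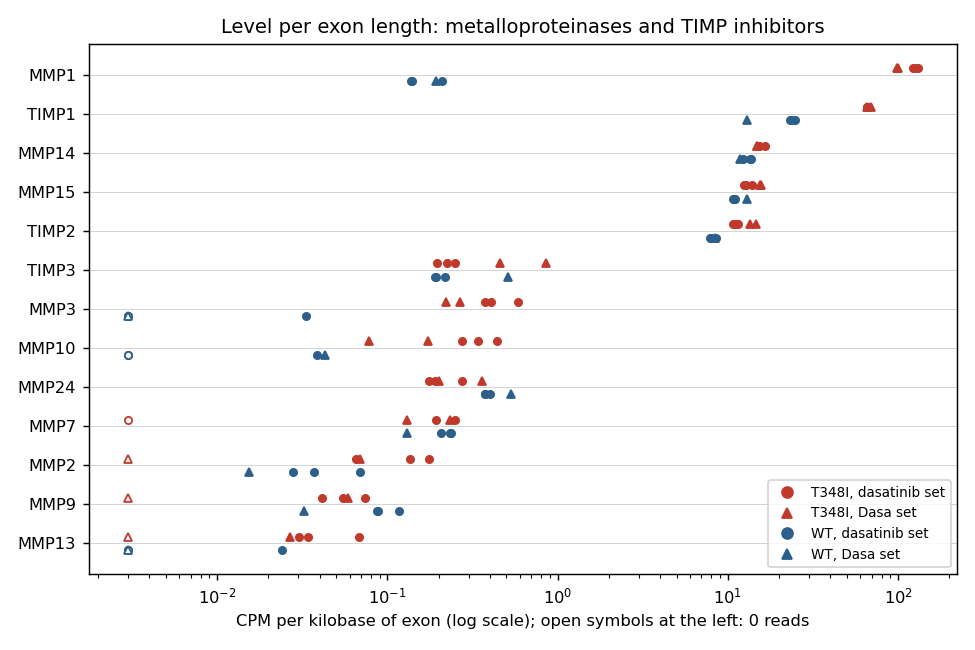
CPM per kilobase of exon of the 10 members and of TIMP1, TIMP2 and TIMP3 on a log axis, 1 symbol per sample, with the T348I row above the WT row for each gene and open symbols at the left for 0 reads. MMP1 averages 116 in T348I samples and 0.169 in WT samples, while MMP14 averages 15.4 in T348I samples and 12.8 in WT samples.

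By class, the 7 secreted members summed to 261, 251, 243, 196 and 198 CPM in T348I samples and to 1.37, 1.28, 1.42 and 0.910 CPM in WT samples. Nearly all of that was MMP1. The other 6 secreted members summed to 2.70, 2.70, 2.93, 1.70 and 1.14 CPM in T348I samples and 0.958, 1.01, 1.15 and 0.531 CPM in WT samples. In this sum the lowest T348I sample, Dasa replicate 2 at 1.14 CPM, lay just under the highest WT sample at 1.15 CPM. The 3 membrane-type members summed to 124 to 137 CPM in T348I samples and 104 to 112 CPM in WT samples.

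MMP1 took 58.5% to 66.2% of the reads of the 10 members in T348I samples and 0.240% to 0.369% in WT samples. The membrane-type members took 33.1% to 40.9% of the members' reads in T348I samples and 98.7% to 99.2% in WT samples. Their own CPM was higher in T348I samples, so their share was smaller there while their level was not.

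**Figure D3:**
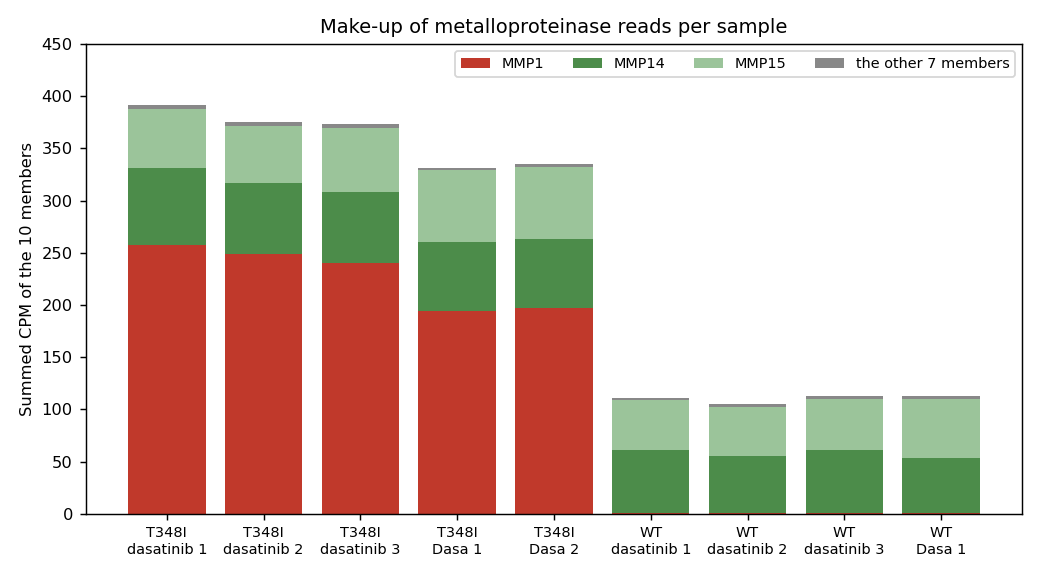
Summed CPM of the 10 members in each sample as stacked bars, split into MMP1, MMP14, MMP15 and the other 7 members, with T348I samples left of WT samples. MMP1 makes up most of each T348I bar, at 194 to 258 CPM, and is too low to see in the WT bars, which consist almost wholly of MMP14 and MMP15.

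Among 13 other MMP genes, 4 were tested, and 1 was called higher and 2 lower in T348I samples. MMP19, a secreted enzyme, was the 1 that rose, by 3.45 on the log2 scale (SE 0.176, edgeR adjusted p = 7.23e-12). Like MMP1 it passed the filter on low counts only through its T348I reads, with 6 to 11 reads in each WT sample, and the ratio of pooled CPM was 12.9 (9.14 to 18.7). It stood at 5.58, 5.91, 5.42, 12.7 and 11.5 CPM in T348I samples and 0.684, 0.548, 0.542 and 0.834 CPM in WT samples. MMP19 was higher in the T348I samples of the Dasa set than in those of the dasatinib set, the other way round from MMP1. MMP11, which furin activates inside the cell, fell by 0.72 (SE 0.140, edgeR adjusted p = 0.000347), with 3.03 to 3.98 CPM in T348I samples and 3.87 to 7.19 CPM in WT samples.

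MMP17, which is held by a lipid anchor, fell by 0.30 (SE 0.105, edgeR adjusted p = 0.0274). The call was lost without WT Dasa replicate 1 (-0.14) and in 7 other settings. Among these is the dasatinib set alone, nearly the same comparison, since without that sample the fold rests on the dasatinib set. MMP16, a membrane-type enzyme, had a log2 fold change of -0.25 (edgeR adjusted p = 0.366) with WT Dasa replicate 1 in the fit and 0.14 without it. Of the rest, MMP23B had 15 reads in T348I samples and 32 in WT samples, a ratio of 0.383 (0.193 to 0.729). The edgeR fit without the filter called MMP23B lower, at a log2 fold change of -1.59 (adjusted p = 0.00483). That p-value has the limit given for MMP3 and MMP10. MMP25 had 42 reads in T348I samples and 25 in WT samples, a ratio of 1.37 (0.818 to 2.35). MMP28 had 5 reads in T348I samples and 10 in WT samples, a ratio of 0.409 (0.110 to 1.31). MMP21 had 1 read in T348I samples and 2 in WT samples, and MMP26 had 0 reads in any sample.

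Inhibitors of the family, or of plasmin and related proteases in the case of TFPI2, changed in both directions. Of 7 genes 6 were tested, and 3 rose (TIMP1, TIMP2 and TFPI2) and 1 fell (A2M), with a median log2 fold change of 0.40 against -0.0077 over all tested genes. TIMP1, which binds MMP1 among others, stood at 101, 103, 102, 107 and 101 CPM in T348I samples and 38.2, 35.8, 36.1 and 19.9 CPM in WT samples. TIMP1 rose by 1.70 (SE 0.0984, edgeR adjusted p = 5.32e-11). Its log2 fold was 1.47 in the dasatinib set and 2.39 in the Dasa set, and the difference of 0.92 passed the edgeR interaction test (adjusted p = 9.53e-08). The low WT Dasa replicate 1 is the 1 WT sample of that set.

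TIMP2, which also serves MMP14 in the activation of MMP2, stood at 64.3, 60.2, 61.8, 75.7 and 82.1 CPM in T348I samples and 44.5, 48.0, 44.7 and 47.5 CPM in WT samples. TIMP2 rose by 0.53 (SE 0.0548, edgeR adjusted p = 2.12e-07). TFPI2, an inhibitor of plasmin and related serine proteases that is laid down in the matrix, averaged 33.2 ± 8.82 CPM (SD, n = 5) in T348I samples and 3.90 ± 0.969 CPM (SD, n = 4) in WT samples. A2M, a plasma trap for proteases, fell by 0.39 (edgeR adjusted p = 7.83e-05), or by 0.24 without WT Dasa replicate 1. TIMP3 (0.27, edgeR adjusted p = 0.402) and the membrane-anchored inhibitor gene RECK (-0.11, edgeR adjusted p = 0.351) did not pass, and TIMP4 had 2 reads in T348I samples and 4 in WT samples.

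Per kb, MMP1 stood at 1.42 to 2.0 times TIMP1 in T348I samples and 0.00587 to 0.0149 times TIMP1 in WT samples. By these exon lengths (1970 bases for MMP1 and 1541 for TIMP1), MMP1 exceeded TIMP1 in each T348I sample. It was far below TIMP1 in each WT sample, with both genes higher in T348I samples. The excess over TIMP1 in T348I samples is small enough to depend on the lengths used. A2M was above MMP1 per kb in both groups, at 159 to 187 CPM per kb in T348I samples and 214 to 279 CPM per kb in WT samples. Protein, secretion and activity were not measured.

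Genes that process the proenzymes were counted from a list of 13, of which 10 were tested, with 5 higher, 2 lower and a median log2 fold change of 0.06. PLAU, or urokinase, which turns plasminogen into plasmin, rose by 4.34 (SE 0.124, edgeR adjusted p = 1.02e-15). It stood at 39.8 to 70.6 CPM in T348I samples and 1.92 to 3.05 CPM in WT samples. Its receptor gene PLAUR rose by 2.41. PLAT, the tissue-type activator, had a log2 fold of 4.47 and passed the filter only through its T348I reads. It had 373 reads in T348I samples and 13 in WT samples, a ratio of pooled CPM of 23.5 (13.6 to 44.5). TMPRSS2, a serine protease of the cell surface, fell by 1.13 (edgeR adjusted p = 2.81e-05), with 1.85 ± 0.427 CPM (SD, n = 5) in T348I samples and 4.4 ± 1.04 CPM (SD, n = 4) in WT samples. PLAU was higher in the T348I samples of the Dasa set than in those of the dasatinib set, as YES1 and MMP19 were.

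**Figure D4:**
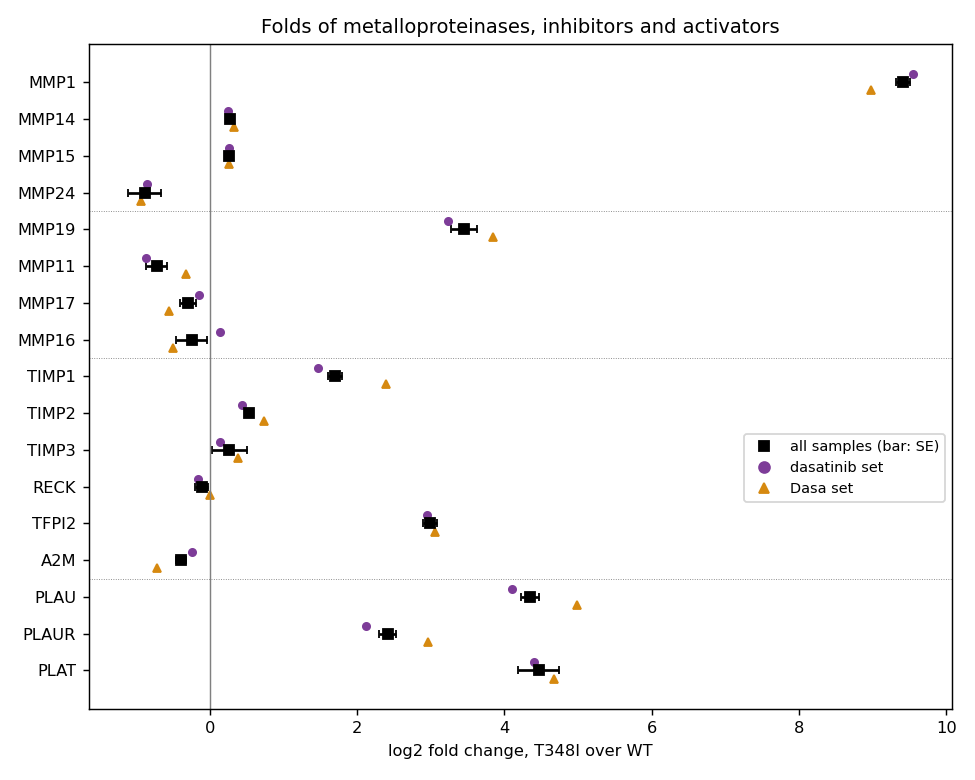
Log2 fold change, T348I over WT, of the tested members, of other MMP genes, of inhibitors and of PLAU, PLAUR and PLAT, as squares with a bar of 1 standard error from edgeR, with circles for the fold within the dasatinib set and triangles for the fold within the Dasa set. MMP1 at 9.41 lies furthest to the right, MMP14 and MMP15 lie at 0.27 and 0.26 and MMP24 at -0.88, and the sets give the same direction for each of these 4.

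Of 10 genes for AP-1 subunits, 9 were tested, and 6 rose and 2 fell, with a median log2 fold change of 0.58. Those that fell were JUN, by 0.49, and JUND, by 0.46. Over all tested genes, 20.7% were called higher and 21.8% lower. FOSL1 rose by 3.72 (edgeR adjusted p = 5.14e-15), JUNB by 1.34 (edgeR adjusted p = 1.24e-14), FOS by 2.21 and FOSB by 1.03. FOSL1 stood at 42.8 to 79.3 CPM in T348I samples and 3.26 to 4.38 CPM in WT samples. Of 10 ETS and RUNX genes, 9 were tested, and edgeR called 7 higher and 0 lower (0 lower at an unadjusted p under 0.05 too), with a median of 0.84. ETS1 rose by 4.55 (edgeR adjusted p = 5.03e-14), with 12.4 to 19.2 CPM in T348I samples and 0.455 to 0.753 CPM in WT samples. ETS1 and RUNX1, both counted as higher, passed the filter only through their T348I reads. ETS2 rose by 0.98, ETV5 by 0.84 and ELK3 by 1.41. What these genes do to the MMP promoters was not tested.

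Of 22 genes for matrix proteins that the family can cleave, 12 were tested, and 7 rose and 2 fell, with a median log2 fold change of 0.25. LAMB3, a laminin chain of epithelial basement membranes, rose by 1.48 (edgeR adjusted p = 2.02e-10). HSPG2, or perlecan, rose by 0.33 (edgeR adjusted p = 3.78e-06) and COL7A1, the collagen of anchoring fibrils, by 0.39 (edgeR adjusted p = 7.62e-06). Both calls were lost without the set term, at log2 folds of 0.51 for HSPG2 and 0.57 for COL7A1. NID1, or nidogen, which links laminin to collagen, fell by 0.73 (edgeR adjusted p = 1.78e-11).

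The ADAM and ADAMTS proteases are related enzymes that shed cell surface proteins or cut matrix proteins. Of 15 genes 8 were tested, and 3 rose and 1 fell, with a median log2 fold change of 0.0098. ADAM19 rose by 0.51 (edgeR adjusted p = 0.000126), ADAM9 by 0.12 (edgeR adjusted p = 0.00868) and ADAMTS9 by 0.35 (edgeR adjusted p = 0.0216). ADAMTS13, the liver protease that cleaves von Willebrand factor, fell by 0.89 (edgeR adjusted p = 4.03e-05), or by 0.59 without WT Dasa replicate 1. The ADAM9 (0.12) and ADAMTS13 (-0.79) calls were lost without the set term, and the ADAMTS9 call was lost without WT Dasa replicate 1 (0.20) and in 4 other settings. These 4 include the dasatinib set alone, which is nearly the same comparison as leaving out WT Dasa replicate 1.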

How the data were processed

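The authors deposited a file of raw counts for each sample. The submitters' processing notes name STAR 2.5.1b, Trimmomatic 0.35, CASAVA 1.8.2 and the build GRCh38, and which annotation was counted is not given in the sources used here. Per the labels' protocols, TRIzol and Qiagen column RNA went into a stranded KAPA kit for polyA RNA. Column 4, which holds the sense strand, was used. Rows that name no gene held 22.2% to 29.8% of reads and were left out. Reads that match several places count for no gene.

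Tests used edgeR 4.0.16 in R 4.3.3 (filterByExpr, TMM, quasi-likelihood F-test with set and group, Benjamini-Hochberg adjustment over all tested genes, threshold 0.05). Standard errors come from the fold and the F statistic. CPM uses TMM-adjusted library sizes. Members below the filter were compared by the ratio of pooled CPM with an exact binomial 95% interval, which covers counting error only, as does the floor of 3 reads. The libraries carry no molecular identifiers, so reads may be copies of 1 molecule. No set test was run, and a list is described by its counts and its median. The counts of each list stand against 20.7% called higher and 21.8% called lower over all tested genes.

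Exon lengths and coordinates come from GENCODE release 29, which held 57881 of the 58219 identifiers, 55050 of them, every member included, with the same version. Symbols were given to 57437. The members and the gene lists were chosen with earlier results of these data known. Named were every member, any other MMP or inhibitor gene measured, and the 4 genes with the smallest p in each other list. JUN and JUND were named as well, as the AP-1 genes called lower. Some genes of the lists are not reported here and stay out of the lists' counts. Marker genes are given as ranges and counts. The labels do not say whether replicates are separate cultures, so the p-values cover the spread among these samples alone, and that may be technical. No 2 samples of the same group and set had the same counts: chi-square per gene between counts was 1.49 to 3.09. This does not show that they are separate cultures.

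On simulated data with the sample numbers and depths of this comparison and 14658 genes tested, 50% of genes changed 1.2-fold were recovered. Recovery was 84% at 1.5-fold and 98% at 2-fold. The simulation held no difference between the sets, changed far fewer genes than were called here, and left out genes with few reads. Recovery in the real data may therefore differ. Alternatives were upper quartile scaling, DESeq2 1.42.0, no filter, no set term, a replicate block, counts without regard to strand, the dasatinib set alone and leaving out each sample.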

Additional observations from a re-analysis of the deposited data

Results flagged for a closer look

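None of the 10 members was flagged. Over the named genes, members included and JUN and JUND left out, 68 groups of samples were looked at for a sample far from the rest. Of these, 9 were flagged, all through WT Dasa replicate 1. Chance flags about 1 in 20, but that rate takes no account of the sets, between which edgeR called 8568 genes. The gap of that sample to the nearest, as a share of the range of log2 CPM in WT samples, was 0.993 for MMP16, 0.902 for TIMP1, 0.857 for A2M and 0.865 for TIMP3. It was 0.881 for NID1, 0.967 for HSPG2, 0.988 for COL7A1, 0.937 for ADAMTS13 and 0.849 for ADAM9. It is the 1 WT sample of the Dasa set, so sample and set cannot be told apart in WT.

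The fold differed between the sets by the edgeR interaction test for 7 named genes, with JUN and JUND again left out. The log2 fold in the Dasa set minus that in the dasatinib set was 0.92 for TIMP1, -0.48 for A2M and 0.84 for PLAUR. It was 1.19 for FOSL1, 0.31 for ETS2, 0.97 for ELK3 and 0.71 for YES1. Apart from A2M, each of these was higher in T348I samples in both sets and more so in the Dasa set.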

How the results depend on the processing

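MMP1, MMP14 and MMP15 were called higher in every setting run. With no filter on low counts 5 members were called higher, since MMP3 and MMP10 joined them, with the limit on p-values given above. Leaving out any 1 WT sample gave 4, MMP3 being the addition (3 to 4 over all samples left out). A smaller WT group lowers the number of samples that must reach the filter level. MMP3 then passed only through its T348I reads, with 0 or 1 read in each WT sample, so this added call says little. Without the set term 2350 genes were called instead of 6212, and 0 members were called lower, as with counts taken without regard to strand. MMP24 then had log2 fold changes of -0.80 (unadjusted p = 0.010) and -0.64 (unadjusted p = 0.0240), and its adjusted p was 0.00146 to 0.0281 in the other settings. No member's fold was called different between the sets in any setting where that test was run. It could not be fitted without WT Dasa replicate 1 or in the dasatinib set alone, and was not run with DESeq2. The log2 fold change of MMP16 reversed, to 0.072 without the set term, 0.14 in the dasatinib set alone and 0.14 without WT Dasa replicate 1 (-0.36 to 0.14 over all samples left out). MMP17 lost its call in 8 settings, ADAMTS9 in 5, and HSPG2, COL7A1, ADAMTS13 and ADAM9 without the set term. The cause of these losses was not tested. Without WT Dasa replicate 1 the folds rest on the dasatinib set, so that setting and the dasatinib set alone are nearly the same fit. All 66 pooled ratios recomputed for the members under other settings, some of them lower bounds against the floor, lay inside their intervals. The intervals are wide and the settings share most reads, so this outcome says little. With the replicate number of the titles as a replicate block, 5372 genes were called, and 3 members were higher and 1 lower. The numbers did not pair the samples, with correlations of 0.0091, -0.061 and 0.015 for numbers 1 to 3 of the dasatinib set. Depth limits the 6 members with 49 or fewer reads per group, for which only large differences could be seen.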
